A study of Mus musculus with 15 samples.

Results

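Apol11a and Apol11b encode apolipoproteins L and are described here by their transcripts in mouse bone marrow. They are 2 of the 38315 genes measured. They were chosen from measured values, because both were near absent in wild-type lineage-negative marrow and high in wild-type whole marrow. Those levels are therefore given as a description with no test, and the levels in leukaemia were not used in the choice. Comparisons of leukaemia with either wild-type group still use the wild-type levels that chose the genes. Total RNA of 15 bone marrow samples was sequenced in bulk. 7 samples were marrow with acute myeloid leukaemia (AML) from transgenic mice carrying NUP98-NSD1, a fusion of a nucleoporin gene with a histone methyltransferase gene, together with FLT3-ITD, an internal duplication in a receptor tyrosine kinase. 4 samples were wild-type whole marrow and 4 were wild-type lineage-negative marrow, a fraction from which cells carrying markers of mature lineages are usually removed. All mice were kept in a mouse facility from birth. The labels used here give no strain or age, no promoter for the transgenes, no antibodies for the lineage-negative fraction and no proportion of leukaemic cells. They also do not say whether any sample was pooled or whether both wild-type fractions came from the same mice, so the p-values measure only the spread between these samples.

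Apolipoproteins L are a family of lipid- and membrane-associated proteins. Human APOL1, the best known member, circulates in serum, where it kills trypanosomes, whereas most other members are thought to act inside cells, and several mouse members respond to interferon. Whole marrow consists largely of maturing neutrophils and red cell precursors. During the late stages of red cell maturation, erythroblasts make haemoglobin from alpha and beta globin chains and haem, whose synthesis Alas2 begins in these cells, and build a membrane skeleton around band 3, the anion exchanger encoded by Slc4a1. Lineage depletion usually removes both maturing populations and leaves stem cells and early progenitors.

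The table placed Apol11a (ENSMUSG00000091650) on the plus strand of chromosome 15 from 77392471 to 77402251. Apol11b (ENSMUSG00000091694) was placed on the minus strand of the same chromosome from 77518146 to 77527486, 116 kb away. The submitters' processing notes name mm10, but the table's starts for the 12 apolipoprotein L genes on chromosome 15 all differed from mm10 (GRCm38) by 115800 bases, so the build of these positions is not established. The sequences just before the transcription starts are shown because they are the same for both genes. In RefSeq's GRCm38.p6 tables, the 250 bases before the start of Apol11a, chr15:77508019-77508268 on the plus strand, and of Apol11b, chr15:77643287-77643536 on the minus strand, differed at 0 positions. Apol10a, the most similar family member here, was 86.9% identical to them over an alignment of its own 250 bases at chr15:77476797-77477046 on the plus strand. Capitals mark matches to GATAA, the core bound by GATA factors, and to GAAA, any 2 bases and GAAA again, a repeat found in interferon-response elements. In all of these sequences both were found on the opposite strand, where they read TTATC and TTTCACTTTC.
Apol11a and Apol11b: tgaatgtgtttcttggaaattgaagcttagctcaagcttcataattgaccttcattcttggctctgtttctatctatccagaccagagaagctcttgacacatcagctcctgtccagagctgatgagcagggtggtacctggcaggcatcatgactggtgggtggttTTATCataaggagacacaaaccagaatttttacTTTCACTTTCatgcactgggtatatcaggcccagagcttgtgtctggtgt
Apol10a: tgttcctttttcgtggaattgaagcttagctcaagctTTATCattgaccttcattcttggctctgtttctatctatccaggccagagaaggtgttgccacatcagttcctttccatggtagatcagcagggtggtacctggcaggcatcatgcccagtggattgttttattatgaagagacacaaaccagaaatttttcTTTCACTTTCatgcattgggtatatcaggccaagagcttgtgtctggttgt

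Both strands were searched for GATAA, this GAAA repeat and CACCC, the core bound by KLF factors, and none of the matches in the printed sequences overlapped one another. The GATAA match of Apol11a and Apol11b ended 78 bases before the start and the GAAA repeat ended 40 bases before it. In Apol10a the GATAA match lay elsewhere, 208 bases before the start, and the GAAA repeat was again close, at 41 bases. CACCC occurred at 2 places in Apol11a and Apol11b and at 1 in Apol10a. Over 32851 mouse promoters of the same length, GATAA was found in 22.6%, CACCC in 52.0% and the GAAA repeat in 2.98%. A promoter was listed for 11 of the 13 family genes, of which 7 held the GAAA repeat, 6 held GATAA and 8 held CACCC. The other 8 family promoters were 46.2% to 52.3% identical to that of Apol11a. These matches describe letters and do not show binding.

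The values are normalized counts, read counts per gene that the authors divided by 1 size factor per library, and ± gives the SD. Estimated depth was 11.4 to 17.2 M reads in whole marrow, 20.3 to 28.1 M in lineage-negative marrow and 20.3 to 35.1 M in AML. A floor of 3 reads, the limit that a count of 0 allows, was worth 1.96 to 4.09 normalized counts, counting error only. Background, the mean over olfactory and vomeronasal receptor genes, which marrow should not use, was 6.31 to 11.9 in whole marrow, 0.325 to 0.462 in lineage-negative marrow and 0.404 to 3.34 in AML. The markers followed the labels: the mean of Ltf, a neutrophil granule protein, was 117478 in whole marrow, 129397 in AML and 1688 in lineage-negative marrow. Hbb-bs, an adult beta globin, averaged 654854, 3915 and 4836 normalized counts in the same order.

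In whole marrow, Apol11b was at 1852, 4090, 4334 and 4720 normalized counts in replicates 1 to 4 (3749 ± 1291, n = 4). In lineage-negative marrow it was at 57.2, 0.881, 7.05 and 9.14 (18.6 ± 25.98, n = 4). Every whole marrow library lay far above every lineage-negative one, and the means differed by 202-fold. Over all genes tested, 17.2% were called lower and 33.1% higher in lineage-negative than in whole marrow, from which nothing is read for genes chosen by this contrast. Among the lineage-negative libraries replicate 1 stood above the rest and replicate 2 was at the level of a single read. Without replicate 1 the lineage-negative mean was 5.69. Apol11a was at 285, 630, 431 and 551 normalized counts in whole marrow (474 ± 151, n = 4). In lineage-negative marrow it was at 0, 0, 0.881 and 0, at or under the floor in all 4 libraries. Set against the floor, averaged over the lineage-negative libraries, the whole marrow mean of Apol11a was at least 190-fold higher. In a bulk sample, fewer cells of a type and less RNA per cell cannot be told apart.

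In AML, Apol11b was at 2.54, 45.0, 354, 123, 47.2, 91.9 and 29.1 normalized counts in replicates 1 to 7 (99.0 ± 119, n = 7). Replicate 3 stood far above the next library, replicate 4, and replicate 1 was under its floor of 3.82. Apol11a was at 0, 6.75, 14.7, 25.3, 8.49, 10.6 and 0 (9.41 ± 8.84, n = 7). Replicates 1 and 7 had no reads for Apol11a, and replicate 4 was highest. The AML libraries therefore spread widely for both genes, while all of them lay below all whole marrow libraries.

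**Figure D1:**
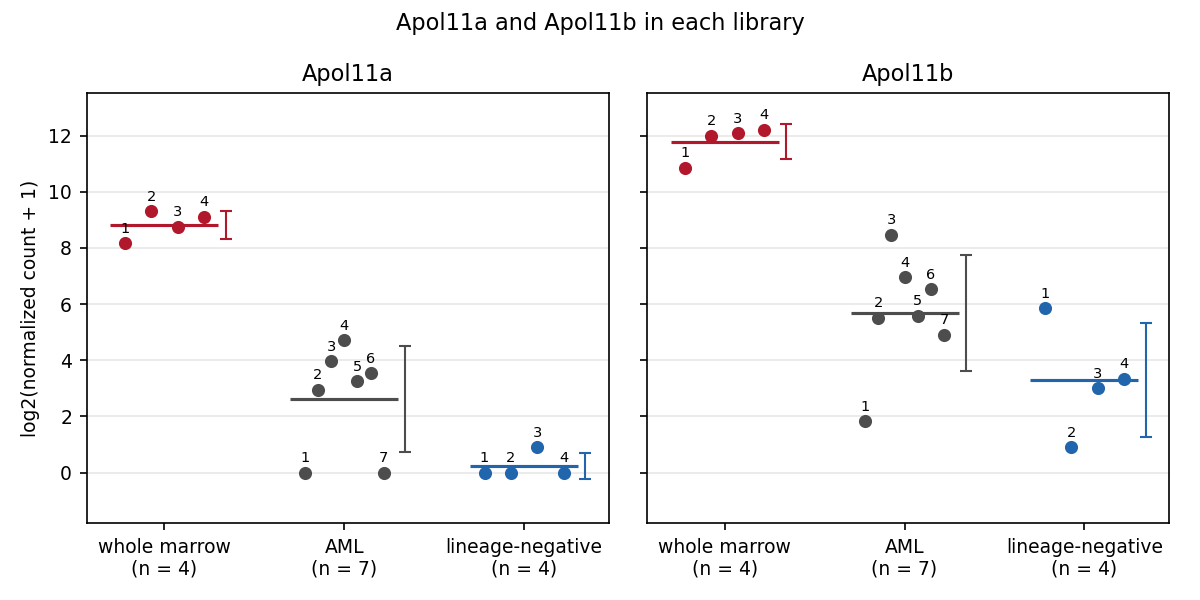
Levels of Apol11a (left) and Apol11b (right) in each of the 15 libraries, as log2(normalized count + 1) on the vertical axis, by group on the horizontal axis, with bars at the group means. Apol11b lay between 1852 and 4720 normalized counts in whole marrow, between 2.54 and 354 in AML and between 0.881 and 57.2 in lineage-negative marrow.

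AML was far below whole marrow for both genes. Being high in whole marrow was part of the choice of both genes, which favoured a lower AML level. Apol11a also reached the level required for testing only with the whole marrow libraries. All p-values and calls of this comparison are therefore no support for a difference, and the levels are given as a description. The mean of Apol11b was 37.9-fold lower, or 66.4-fold lower without AML replicate 3, and that of Apol11a was 50.4-fold lower. On the log2(value + 1) scale, which understates changes of low values, AML minus whole marrow was -6.10 for Apol11b (SE 0.90, limma adjusted p = 2.02e-05). For Apol11a the difference was -6.20 (SE 0.74, limma adjusted p = 2.42e-06). Calls required both an adjusted p under 0.05 and a log2 difference of at least 1 in size. Both genes were called lower, and 11.3% of the 18941 genes tested were called lower in this comparison. The median log2 difference of all genes between AML and whole marrow was 0.67 and became -0.01 under another scaling (TMM, trimmed mean of M-values). Relative to that median, the difference was -6.77 for Apol11b and -6.87 for Apol11a. Because reads of paralogs may have been divided between the genes, their sum was also tested. Its mean log2 difference was -6.14, with p = 0.00303 by an exact two-sided permutation test, the smallest p that 330 splits allow (adjusted p = 0.00606 over 2 comparisons).

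Against lineage-negative marrow, AML was higher for both genes by a margin close to the threshold, and the groups overlapped. Being near absent in lineage-negative marrow was part of the choice of both genes, which favoured a higher AML level. The p-values and calls of this comparison are therefore no support for a difference. The mean of Apol11b was 5.33-fold higher in AML, 17.4-fold without lineage-negative replicate 1 and 3.04-fold without AML replicate 3. Its log2 difference was 2.41 (SE 0.90, limma adjusted p = 0.0353). The mean of Apol11a was at least 3.78-fold higher than the lineage-negative floor, with a log2 difference of 2.40 (SE 0.74, limma adjusted p = 0.0113). In this comparison 17.7% of all genes tested were called higher. AML replicate 1, at 2.54, lay below 3 of the lineage-negative values of Apol11b, and lineage-negative replicate 1, at 57.2, lay above 4 of the AML values. The sum of both genes differed by 2.50 on the log2 scale, which did not pass the exact two-sided permutation test (p = 0.0909), and by 3.17 without AML replicate 1 (exact p = 0.0190). The call for Apol11b was also lost without any of AML replicates 3, 4 and 6 or lineage-negative replicates 2, 3 and 4, with log2 differences of 1.62 to 3.27 over all libraries left out in turn.

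Apol11b was the more abundant of the pair. Per kilobase of exon (1864 bases for Apol11a and 2463 for Apol11b), the whole marrow level was 254 ± 80.8 for Apol11a and 1522 ± 524 for Apol11b (n = 4). Apol11a made up 9.04% to 13.3% of the summed normalized counts in whole marrow and 0% to 17.1% in AML. Its log2 level had a Pearson r of 0.94 with that of Apol11b over the 15 libraries and of 0.66 after the mean of each group was subtracted. These correlations describe libraries that share depth and composition and carry no p. The annotated transcripts share some sequence: 15.3% of the 50-base words of Apol11a occur in Apol11b and 2.72% of its 100-base words, so part of the reads could be assigned to either gene.

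Across marrow lineages, the sum of Apol11a and Apol11b, most of which is Apol11b, ran with the genes of late red cell maturation. Pearson r was computed between log2(sum of both genes + 1) and each member of 18 lists of lineage markers. Over the 15 libraries the median r was 0.87 for 13 late erythroid genes, against -0.38 for all genes tested. Within that list it was highest, at 0.93, for Alas2. B cell genes followed at 0.81, secondary granule genes at 0.58, marrow macrophage genes at 0.57 and late neutrophil genes at 0.54. Stem and progenitor genes were at -0.49 and primary granule genes, made in the earliest granulocyte stages, at -0.50. For Apol11a alone the late erythroid and B cell medians were close, at 0.82 and 0.79, and for Apol11b alone they were 0.88 and 0.80. Over all libraries these values rest mainly on the group means that chose the genes.

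After the mean of each group was subtracted, the sum of both genes still ran with the late erythroid list, with a median r of 0.87 against 0.04 for all genes. Slc4a1 was highest at 0.93 and Fech, the last enzyme of haem synthesis, lowest at 0.62. Leaving out AML replicate 1 gave a median of 0.78, leaving out AML replicate 3 gave 0.83, and 0.84 was reached without lineage-negative replicate 1, the library that held the most Apol11b and the most globin of its group. Erythroid progenitor genes followed at 0.68, conventional dendritic cell genes at 0.61 and B cell genes at 0.49. Late neutrophil genes were at -0.05 and interferon-stimulated genes at -0.11, and leaving out 1 of these libraries moved them between -0.28 and 0.19 and between -0.39 and 0.14. Apol11a alone was at 25.3 normalized counts or less outside whole marrow, often at or under the floor. Its group-centred median was 0.45 with late erythroid and 0.80 with erythroid progenitor genes, and Apol11b alone had 0.88 and 0.66.

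**Figure D2:**
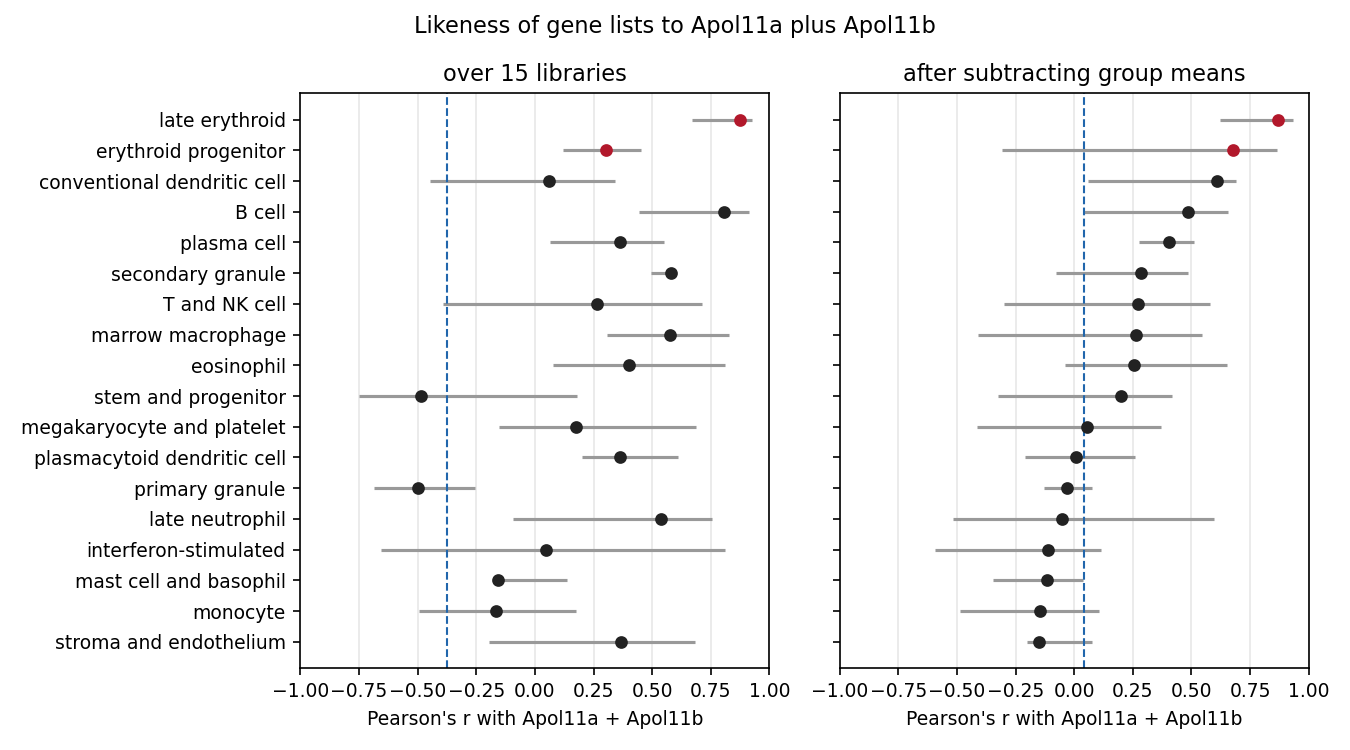
Median Pearson r of each lineage list with log2(Apol11a + Apol11b + 1), over the 15 libraries as they are and after group means were subtracted, with lists on the vertical axis and r on the horizontal axis; lines span the lowest to the highest member. The late erythroid list sat at 0.87 by both measures, whereas the B cell list moved from 0.81 to 0.49 and the late neutrophil list from 0.54 to -0.05.

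The single genes most like the sum of both genes were named from the 10392 genes whose mean reached 100 normalized counts. Over the 15 libraries they were Akap12 (r = 0.94), Tent5c (0.93), Alas2 (0.93), Hbb-bs (0.92), Ebf1 (0.91), the alpha globin Hba-a2 (0.91), Cd36 (0.91), Reln (0.91), Slfn14 (0.91) and Vpreb3 (0.90). Ebf1, a transcription factor of early B cells, and Vpreb3, a pre-B cell protein, are B lineage genes, and 3 of the 10 belong to the late erythroid list. With group means subtracted, the 10 included Ypel4 (r = 0.95), Fhdc1 (0.94), Slc4a1 (0.93), Sox6 (0.93), Alas2 (0.92), Ank1 (0.92), Dmtn (0.91), Btnl10 (0.90) and Epb42 (0.90). For Apol11a alone, r with these named genes was lower, at 0.47 (Alas2) to 0.73 (Sox6), and for Apol11b alone it was 0.90 to 0.95. The sum itself had a group-centred r of 0.999 with Apol11b and 0.69 with Apol11a. Slc4a1, Ank1, Dmtn and Epb42 encode band 3, ankyrin, dematin and protein 4.2 of the red cell membrane and its skeleton, and Sox6 is a transcription factor of erythroid maturation. Alas2 alone was in both sets of 10. Between the wild-type fractions some of these genes differed from the pair: Ank1 averaged 4841 normalized counts in whole marrow and 3132 in lineage-negative marrow, a far smaller gap than that of Apol11b.

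Library by library, Alas2 shows the same order as Apol11b in the wild-type groups. It was at 664, 33.8, 87.5 and 124 normalized counts in lineage-negative replicates 1 to 4 and at 12290, 21001, 23137 and 27472 in whole marrow. In AML it was at 5.49, 59.0, 579, 246, 50.2, 84.9 and 175, so that replicate 1 was lowest and replicate 3 highest for both genes, while replicate 7 ranked higher for Alas2 than for Apol11b. Fpr1, a receptor of mature neutrophils, had nearly equal means in AML (1395) and whole marrow (1630), between which the means of Apol11b differed by 37.9-fold.

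In AML against whole marrow, all 13 late erythroid genes were called lower, with a median log2 difference of -7.75, and so were all 8 erythroid progenitor genes, against 11.3% of all genes. Of 12 late neutrophil genes 1 was called lower (4 under TMM scaling) and none higher, with a median of -0.40. No secondary granule gene of 8 was called. Genes of further lineages were called lower too: 9 of 10 B cell genes, 9 of 9 eosinophil genes (median -5.70), 7 of 8 megakaryocyte and platelet genes (-2.76) and 5 of 6 mast cell and basophil genes (-2.47). Against lineage-negative marrow, where Apol11a and Apol11b were called higher, no late erythroid gene was called higher and 5 were called lower, with a median of -1.15, against 12.5% of all genes called lower. All 12 late neutrophil genes and 7 of 10 B cell genes were called higher there, against 17.7% of all genes. So were all 8 secondary granule, all 6 monocyte and all 6 plasmacytoid dendritic cell genes. Marrow macrophage (9 of 10), conventional dendritic cell (7 of 8) and interferon-stimulated genes (12 of 14) were mostly called higher too. Mostly called lower were erythroid progenitor (7 of 8), eosinophil (7 of 9), mast cell and basophil (5 of 6) and megakaryocyte and platelet genes (5 of 8). The part of any of these cell types in the levels of Apol11a and Apol11b was not tested.

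Within the 7 AML libraries, where the group difference plays no role, the sum of both genes was compared with the mean log2 level of each of the 18 lists by exact two-sided permutation over 5040 pairings. The erythroid progenitor list had r = 0.953 (exact p = 0.00119, adjusted p = 0.0214) and Spearman rho = 0.929 (exact p = 0.00675, adjusted p = 0.121). Without AML replicates 1 and 7, the libraries farthest from the median of that list, r was 0.816. It lost the adjusted threshold when any 1 AML library was left out, with r between 0.841 and 0.985 and adjusted p between 0.05 and 0.167. The late erythroid list had r = 0.897 (exact p = 0.0103, adjusted p = 0.0929) and rho = 0.786 (exact p = 0.048, adjusted p = 0.288), and r fell to 0.379 without AML replicates 1 and 3, on which the relation therefore rests. Without AML replicate 7 it was 0.954, with an exact permutation adjusted p of 0.025. The late neutrophil list had r = -0.623 (exact p = 0.130, adjusted p = 0.390) and rho = -0.607 (exact p = 0.167, adjusted p = 0.471), and r was -0.898 without AML replicates 1 and 6. The monocyte list had r = -0.677 (exact p = 0.0835, adjusted p = 0.301). Its rho was -0.786 (exact p = 0.048, adjusted p = 0.288), and r was -0.706 without AML replicates 3 and 6. The stem and progenitor list had r = 0.818 (exact p = 0.0238, adjusted p = 0.143) and rho = 0.75 (exact p = 0.0663, adjusted p = 0.298), and r was 0.233 without AML replicates 1 and 3. The eosinophil list had r = 0.775 (exact p = 0.0393, adjusted p = 0.177) and rho = 0.536 (exact p = 0.236, adjusted p = 0.471), and r was 0.756 without AML replicates 1 and 2. No list but the erythroid progenitor list passed the adjustment, and differences between lists were not tested.

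**Figure D3:**
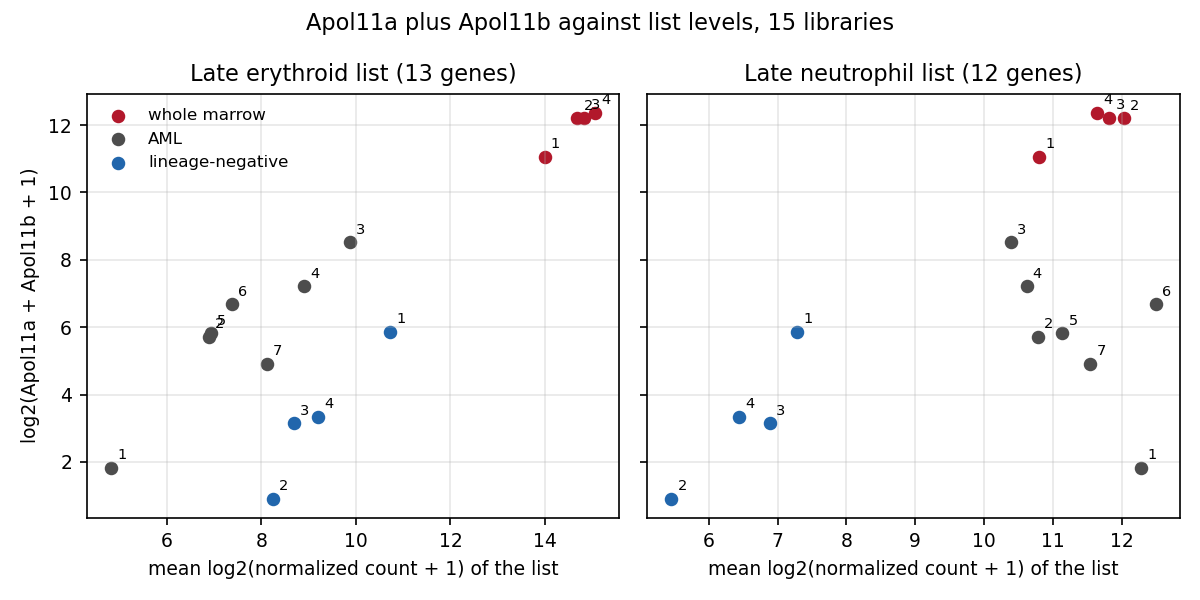
Level of Apol11a plus Apol11b, as log2(sum of normalized counts + 1), on the vertical axes against the mean log2(normalized count + 1) of the late erythroid list (left) and the late neutrophil list (right) in the 15 libraries, coloured by group. The AML libraries reached the whole marrow range on the late neutrophil axis and stayed below it on the late erythroid axis.

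Apol11a and Apol11b were also described relative to late erythroid genes. The mean log2 level of the list was subtracted from log2(sum + 1), a measure chosen after the values were seen. This relative level was -1.74 ± 0.98 in AML (n = 7), -2.68 ± 0.19 in whole marrow (n = 4) and -5.89 ± 1.04 in lineage-negative marrow (n = 4). The low lineage-negative values follow from the choice of genes near absent there, so that group is given with no test. AML was 0.94 above whole marrow, with 5 of 7 libraries above every whole marrow library, which did not pass the exact permutation test (p = 0.0939). That difference was 1.15 without AML replicate 1 and 1.19 without AML replicate 7, each with exact p = 0.0429. The whole marrow level was part of the choice of genes too, and the measure was chosen late. None of these p-values is therefore support for a difference. Taken per 100 normalized counts of Alas2, Apol11b was at 15.1 to 19.5 in whole marrow, 2.61 to 8.62 in lineage-negative marrow and 16.6 to 108 in AML. With each of the 13 genes in turn as the reference, the AML median of this ratio lay above the whole marrow median for 10 genes. It lay below for Fech (log2 ratio -3.83 in AML against -1.20 in whole marrow), Bpgm (-2.59 against -1.39) and Tmcc2 (-2.72 against -1.67). The direction therefore depended on the reference gene.

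The apolipoprotein L family did not move as a block. Of its 13 listed genes, 8 passed the filter of 10 normalized counts in at least 4 libraries, while Apol6, Apol7a, Apol7b, Apol7d and Apol9b did not. Apol9a, Apol10a and Apol11a passed only with the whole marrow libraries, and Apol7c and Apol10b only with the AML libraries, so the filter favoured a difference for these 5 and the counts of calls are no support. In AML against whole marrow the genes called lower were Apol8 (-6.63), Apol11a, Apol11b, Apol10a (-5.47) and Apol9a (-3.67), in log2, against 11.3% of all genes. Apol7c, Apol7e and Apol10b were not called, and no gene was called higher (2 without AML replicate 7), against 27.3% of all genes. In AML against lineage-negative marrow, Apol7c (3.19), Apol10b (3.18), Apol11a and Apol11b were called higher, against 17.7% of all genes. Apol8 (-3.25) was called lower there, against 12.5% of all genes. The count called higher was 2 when AML replicate 3, AML replicate 6 or lineage-negative replicate 2 was left out. With every gene that had a non-zero value in the fit, Apol6 (-2.51) was called lower as well. Apol6 was at 2.09 to 16.2 normalized counts in whole marrow, a span that includes the background range of that group. The part of background in the Apol6 call was not tested. In lineage-negative against whole marrow, Apol8 (-3.38), which passed the filter without whole marrow, was called lower, as were Apol9a (-3.79) and Apol10a (-5.99), which did not, and Apol10b (-2.56). Over all genes tested, 17.2% were called lower in that comparison. Apol10b was at 7.30 to 9.87 normalized counts in whole marrow, within the background range of that group, and the part of background in its call was not tested.

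Apol10a and Apol8 were the family members closest to Apol11b, in different ways. Apol10a, which shares most of its upstream sequence with the pair, averaged 110 ± 23.0 normalized counts in whole marrow, 4.19 ± 7.69 in AML and 1.11 ± 1.67 in lineage-negative marrow, where 3 of 4 libraries were at or under the floor. Its r with Apol11b was 0.91 over the 15 libraries and 0.67 with group means subtracted. Apol8 averaged 632 ± 182 in whole marrow, 8.34 ± 8.48 in AML and 73.0 ± 61.7 in lineage-negative marrow, so that it was lower in AML than in lineage-negative marrow while Apol11b was higher. Its r with Apol11b was 0.72 over the 15 libraries and 0.89 with group means subtracted. Apol9a had 0.75 and 0.06 by the same measures. Of the 12 family genes on chromosome 15, 11 lie within 369 kb, with genes called lower and genes not called next to each other in that stretch. Per kilobase of exon, Apol11b was the highest family member in whole marrow, followed by Apol11a at 254 and Apol8 at 213, and the last 2 differed by less than their spread. In AML, Apol7c, Apol11b and Apol7e had the highest means, 43.3, 40.2 and 29.7 per kilobase, with overlapping ranges. This order rested on AML replicate 3, without which the means were 18.7, 22.9 and 25.4, and the medians were 13.3, 19.2 and 31.1.

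**Figure D4:**
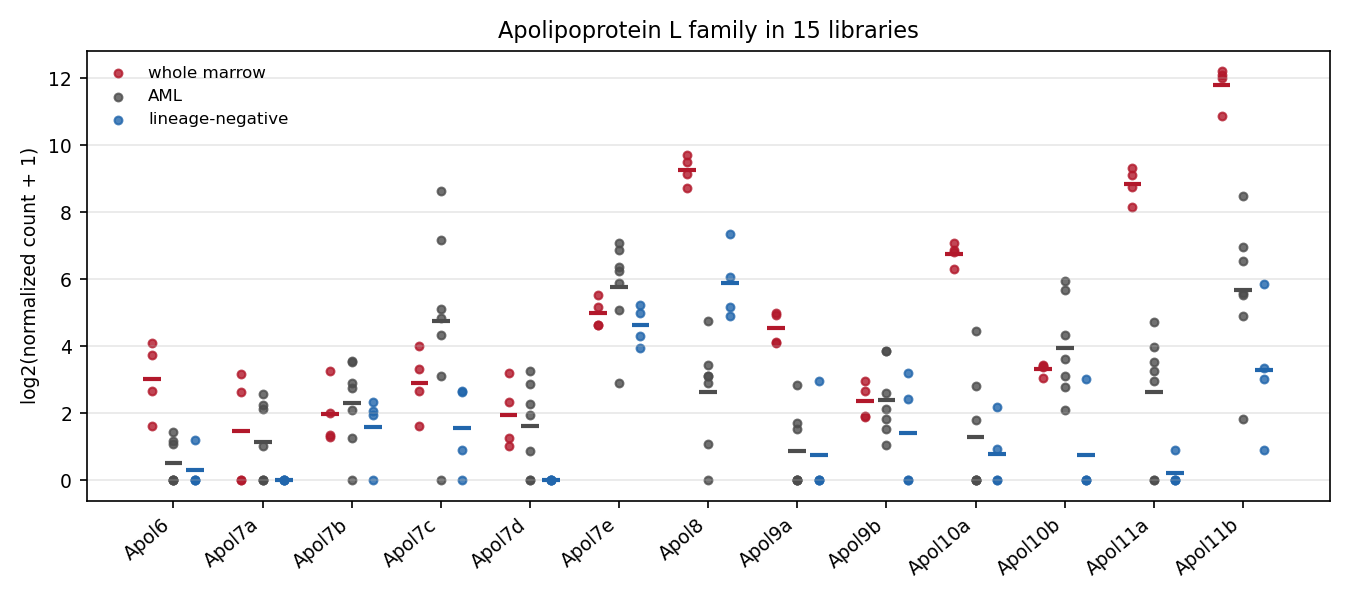
Levels of the 13 apolipoprotein L family genes in the 15 libraries, as log2(normalized count + 1) on the vertical axis, with genes on the horizontal axis, groups by colour and bars at group means. Whole marrow stood above AML for Apol8, Apol10a, Apol11a and Apol11b in every library, whereas the AML points of Apol7e and Apol10b overlapped those of whole marrow.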

How the data were processed

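The authors deposited 1 table of normalized counts per gene for 15 libraries, a signal that, by the table's name, was scaled with DESeq2 size factors of the poscounts type. The libraries followed a stranded total RNA protocol, per the labels' protocols, and the submitters' processing notes list STAR, Partek, DESeq2 and mm10 without versions. The strand and the treatment of multiply mapped reads are not given in the sources used here, so reads of paralogs, overlapping and antisense genes may have been split between them. Groups and replicate numbers came from the sample titles.

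Values were tested as log2(value + 1) in 1 limma fit of 3 group means (limma 3.58.1, R 4.3.3), two-sided, with moderated variances that follow the mean level, over 18941 genes with at least 10 normalized counts in at least 4 libraries. Adjusted p-values are Benjamini-Hochberg values over those genes. The test was checked on simulated data. Of the low values of each library 80.8% to 86.4% were whole multiples of 1 read within a tolerance of 0.02, so whole reads were not recovered for all genes and no count model was used. Sums of both genes and relations within AML were tested by exact permutation (SciPy 1.17.1). The 2 genes and all lists were chosen with earlier results of these data known. Named genes were Apol11a and Apol11b, the family, the 10 genes most like them by each of 2 measures among genes whose mean reached 100, predicted genes left out, and the ends of lists; some genes this rule names are not reported here. Exonic lengths are from the GRCm38 annotation and promoters from RefSeq (GRCm38.p6). Alternatives covered pseudocount, filter, scaling, background, replicate block, variance model, samples in the fit and each library left out.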

Additional observations from a re-analysis of the deposited data

Results flagged for a closer look

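3 values stood apart within their groups by Dixon's test on the gap to the nearest library, out of 9 groups tested. For normally distributed values chance gives about 1 in 20. The test used the normalized counts themselves and was not run on log2 values, on which the other tests here were made. Apol11b in AML replicate 3 was at 354 normalized counts, with the next AML library at 123. The AML mean was 56.5 without it. Apol11b in lineage-negative replicate 1 was at 57.2, with the next library at 9.14, and the same library held the most Hbb-bs of its group, 14642 normalized counts against 798 to 2248. Apol11a in lineage-negative replicate 3 was at 0.881, under its floor, with the other 3 libraries at 0, and any single read beside 3 values of 0 would stand apart in this way.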

How the results depend on the processing

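The calls of Apol11a and Apol11b in AML against whole marrow held under every alternative run, as did that of Apol11a against lineage-negative marrow. The choice of the genes favoured both differences, so these runs show only how far the calls depend on the settings. The call of Apol11b against lineage-negative marrow was lost with all genes that had a non-zero value tested, with a robust variance model and with only the 2 groups compared in the fit (log2 difference 2.41 in each, limma adjusted p = 0.0783, 0.101 and 0.0728), with quantile scaling (1.89, adjusted p = 0.0605), and over libraries left out it ranged from 1.62 to 3.27. Replicate numbers are shared between groups. Deviations from the group means had correlations of -0.288 to 0.171 for same-numbered libraries and -0.241 to 0.194 for the others. With so few libraries per group, these values cannot tell whether same-numbered libraries share mice or preparation. With the replicate block the difference of Apol11b from lineage-negative marrow was 2.41 (limma adjusted p = 0.109). In that fit 2 family genes were called higher in AML than in whole marrow, against 0.

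That count was 1 with quantile scaling, 2 with background subtracted and 0 to 2 over libraries left out. Family genes called lower there were 3 instead of 5 under a filter on a mean of 50. Family genes called higher than in lineage-negative marrow were 2 instead of 4 with all non-zero genes, the filter of 50, quantile scaling, the robust model or 2 groups alone, and 2 to 5 over libraries left out. The sum of both genes against lineage-negative marrow ranged from 1.70 to 3.35 over libraries left out. Relative to late erythroid genes, AML minus whole marrow was 1.02 with a pseudocount of 5 (exact permutation p = 0.0455) and 0.77 to 1.19 over libraries left out. This measure was chosen after the values were seen, so that p-value is no support for a difference.

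Within AML, r over libraries left out ranged from 0.841 to 0.985 for the erythroid progenitor list and from 0.749 to 0.954 for the late erythroid list. Over 15 libraries, Spearman's rho gave 0.78 for late erythroid, 0.42 for secondary granule and 0.23 for plasmacytoid dendritic cell genes, and TMM scaling gave 0.62 for secondary granule, -0.29 for primary granule, -0.020 for mast cell and basophil and 0.64 for plasma cell genes. With group means subtracted, rho was 0.15 for primary granule, 0.036 for mast cell and basophil and -0.027 for stroma and endothelium genes. Over the libraries left out in turn (AML replicates 1 and 3 and lineage-negative replicate 1), the median r over the rest ranged from 0.57 to 0.73 for secondary granule, 0.15 to 0.33 for erythroid progenitor and -0.30 to -0.11 for mast cell and basophil genes. With group means subtracted it ranged from 0.043 to 0.70 for secondary granule, -0.083 to 0.18 for primary granule, -0.18 to 0.33 for mast cell and basophil, 0.29 to 0.66 for plasma cell, -0.39 to 0.14 for interferon-stimulated and -0.20 to 0.11 for stroma and endothelium genes. The cause of these changes was not tested. Few reads limit Apol11a outside whole marrow, although estimated depth was higher in both other groups. It was at or under the floor in every lineage-negative library. In AML it ranged from 0 reads in replicates 1 and 7 to about 30 in replicate 4.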
